A study of Macaca fascicularis and Macaca mulatta with 24 samples.

Results

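The genes described here are PSD-95 (DLG4), its MAGUK relatives DLG1, DLG2 and DLG3, the partner scaffolds DLGAP1, SHANK2 and HOMER1, neuronal nitric oxide synthase (NOS1) and its adaptor NOS1AP. They were found by symbol, in the gene name or in the bracketed symbol of the probe description, and all 9 genes were present, with 12 probes among the 20217 probes and 15763 named genes of the array. The arrays measured RNA in cortex of cynomolgus macaques (Macaca fascicularis) in a stroke model in which the middle cerebral artery of the right side was occluded (MCAO). Animals received placebo, or 2.6 mg/kg of the peptide TatNR2B9c into a vein, 5 minutes after MCAO. Tissue came from the right, ischemic side and from the left, non-ischemic side at 1 h or 6 h, which gave 8 groups of 3 animals: placebo left, placebo right, TatNR2B9c left and TatNR2B9c right at each time. All animals were operated, so the left side of an operated brain is the only non-ischemic control. The labels do not give age, sex or the occlusion's length, and they do not state whether same-numbered left and right biopsies came from 1 animal.

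PSD-95 is the central scaffold of the postsynaptic density at excitatory synapses. Its PDZ domains bind the tails of NMDA receptor NR2 subunits and also bind NOS1, which places the enzyme beside the calcium entering through the receptor. The guanylate kinase region of PSD-95 binds DLGAP1 (GKAP), which is linked through SHANK proteins to HOMER1 and the metabotropic glutamate receptors. NOS1AP (CAPON) binds the PDZ region of NOS1 and competes there with PSD-95. TatNR2B9c joins a cell-penetrating Tat sequence to the C-terminal residues of NR2B and is designed to uncouple NMDA receptors from PSD-95, an action on proteins that an RNA measurement does not read.

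Probes are 60-base sequences, and their positions are those the array annotation gives on the rhesus build rheMac2. The first 30 bases are shown, in the direction of the probe as deposited, for the 4 probes on which the results turn. No base is set in capitals because no motif was searched.
DLG4: agggtctggggtcacccctgccctcatcgc
NOS1: catgtggagcttgacttcatgccagctata
NOS1AP: gaactgaatccaaacgttttctccagccgg
DLG2: cttatgaatgtacaacacaaactgtatgaa
The DLG4 probe lies at chr16:6917708-6917767 on the minus strand and the NOS1AP probe at chr1:140899217-140899276 on the plus strand. The DLG2 probe lies at chr14:81727138-81727197 on the minus strand, and the newest annotation in the files names it MPP2. The NOS1 probe has no position in the newest annotation, and only the oldest annotation ties it to NOS1, so its values are those of a probe once assigned to that gene. In the newest annotation the DLGAP1 probe and the second SHANK2 probe also carry no gene symbol, and the DLG3, DLG4 and first SHANK2 probes carry LOC names. The HOMER1 probe is at chr6:75603606-75603665, the DLG3 probe at chrX:69473238-69473297 and the DLGAP1 probe at chr18:10682441-10682500. DLG1 has 3 probes between chr2:188380303-188380362 and chr2:188381117-188381176, and SHANK2 has a probe at chr14:4307177-4307236 and another at chr14:4286079-4286138. Exon, intron or UTR placement was not analysed here.

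Each array held a cortex sample in the red channel (Cy5) and a rhesus universal reference RNA in the green channel (Cy3), and a level below is the log2 ratio of sample over reference. The arrays were extracted with 3 software versions that coincide with groups: 1 for placebo at 1 h, 1 for placebo at 6 h and 1 for all TatNR2B9c arrays. TatNR2B9c against placebo, and 6 h against 1 h within placebo, therefore cannot be told apart from these array campaigns. Right against left and the TatNR2B9c time comparison lie within 1 software version. Both sides were scanned on day 1 at placebo 1 h and on day 4 at TatNR2B9c 1 h, and same-numbered TatNR2B9c 6 h arrays shared a scan day. The placebo 6 h sides and the TatNR2B9c times did not lie within 1 scan day. TatNR2B9c arrays were scanned on day 4 at 1 h and on day 4 or 5 at 6 h. Placebo 6 h arrays were scanned on day 2 or 3 for the left and on day 3 for the right. The reference was dim at placebo 1 h, where 15.7% to 51.7% of probes were well above background in Cy3, against 84.3% to 92.5% at placebo 6 h. With TatNR2B9c this share was 51.8% to 74.5% at 1 h and 72.3% to 99.3% at 6 h, so reference brightness also differed between those times. In Cy5 the share ran from 45.4% to 97.7%. A panel of 14 neuronal marker genes was above background in Cy5 on 92.9% to 100% of genes per array, so the neuronal transcripts that cortex should hold were present. In bulk tissue, fewer cells of a type and less RNA per cell cannot be told apart. The number of arrays, 3 per group, limits the precision, and p-values measure the spread between these samples.

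The PSD-95 transcript had log2 ratios near 0 at 1 h and higher ones at 6 h, in placebo more than in TatNR2B9c animals. At placebo 1 h its reference signal was above background on 1 of 6 arrays, so the ratio there gives no firm level. In placebo at 1 h, the left arrays gave DLG4 log2 ratios of -0.13, 0.13 and -0.17, and the right arrays -0.02, 0.42 and -0.07. In placebo at 6 h the left arrays gave 2.51, 2.41 and 2.04, and the right arrays 1.85, 1.97 and 2.13. All 6 placebo arrays at 6 h lay above all 6 at 1 h. In TatNR2B9c animals DLG4 read 0.09, 0.36 and 0.49 on the left at 1 h, and 0.76, 1.40 and 1.04 on the left at 6 h. On the right it read -0.0004, 0.35 and 0.43 at 1 h, and 1.08, 2.00 and 0.90 at 6 h. The TatNR2B9c arrays at 6 h lay between the placebo 1 h and placebo 6 h arrays, and on the right the array at 2.00 fell inside the placebo 6 h range.

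The order of the DLG4 group means, from the highest, was placebo left 6 h at 2.32 ± 0.25 (SD, n = 3), placebo right 6 h at 1.98 ± 0.14, TatNR2B9c right 6 h at 1.33 ± 0.59 and TatNR2B9c left 6 h at 1.07 ± 0.33. The 1 h groups followed, with TatNR2B9c left at 0.31 ± 0.20, TatNR2B9c right at 0.26 ± 0.23, placebo right at 0.11 ± 0.27 and placebo left at -0.06 ± 0.16. Left and right of the same treatment and time were neighbours in this order and overlapped in each of the 4 cases. The gap between the lowest 6 h group and the highest 1 h group exceeded the spread of either.

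**Figure D1:**
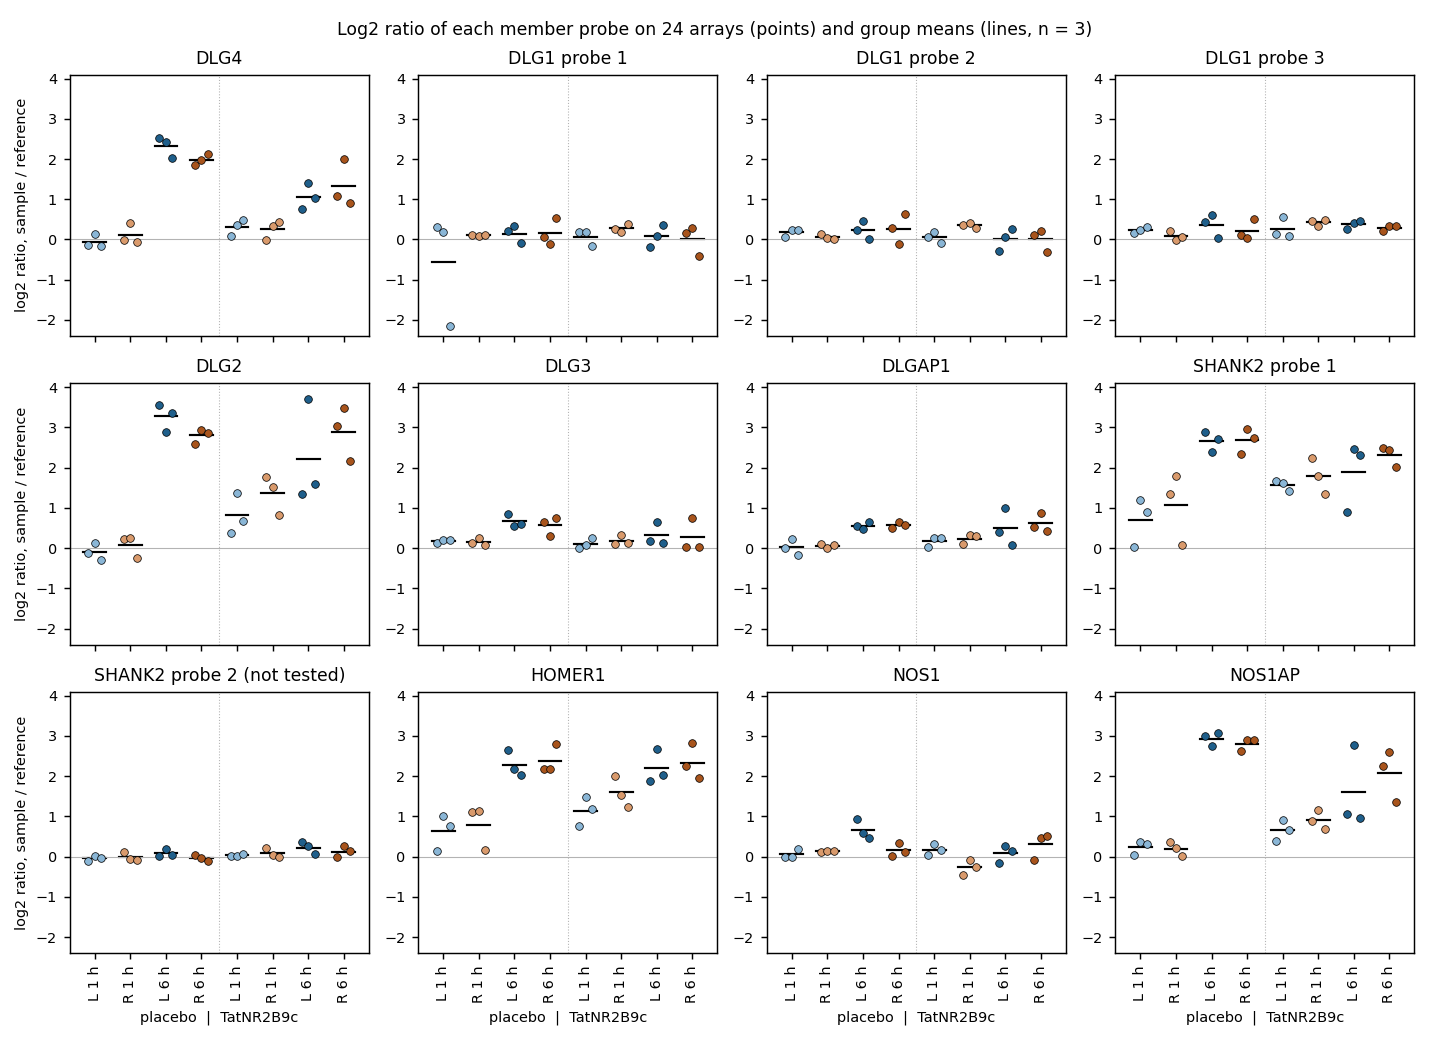
Log2 ratio of sample over reference (vertical axis) for each of the 12 member probes on 24 arrays, by group (horizontal axis, L left and R right cortex, placebo before and TatNR2B9c after the dotted line). Points are arrays and lines are means of 3; DLG4, DLG2, SHANK2 probe 1, HOMER1 and NOS1AP are higher at 6 h than at 1 h in placebo, while DLG1 stays near 0 apart from 1 array at -2.15.

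Among the other MAGUK scaffolds, DLG2 (PSD-93, another postsynaptic scaffold) had the widest range, and DLG1 (SAP97) the flattest pattern. In placebo at 1 h, DLG2 read -0.13, 0.14 and -0.29 on the left and 0.22, 0.24 and -0.24 on the right. In placebo at 6 h it read 3.56, 2.88 and 3.37 on the left and 2.60, 2.95 and 2.85 on the right. The 2 times did not overlap on either side. With TatNR2B9c, DLG2 read 0.38, 1.38 and 0.68 on the left at 1 h and 1.34, 3.71 and 1.60 on the left at 6 h. On the right it read 1.77, 1.51 and 0.83 at 1 h and 3.03, 3.49 and 2.17 at 6 h. Replicate 2 stood above the other left TatNR2B9c arrays at both times, so the left 6 h group had an SD of 1.30, the widest of the DLG2 groups.

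All 3 DLG1 probes were above background in Cy5 on 24 of 24 arrays, and in Cy3 on 21 or 22. Its probes 2 and 3 stayed between -0.32 and 0.62 on every array. Probe 1 stayed between -0.41 and 0.52 except on placebo left 1 h array 3, where it read -2.15 while probes 2 and 3 read 0.24 and 0.31. On that array the Cy5 signal of probe 1 was like that of its group (quantile-normalised log2 intensity 9.79, against 9.76 and 9.80), and its Cy3 signal was 9.71 against 6.01 and 8.05. DLG3 (SAP102) ranged from 0.01 to 0.85, with its highest group mean in placebo left at 6 h (0.66 ± 0.16). It was above background in Cy5 on 18 of 24 arrays, so its low values carry little precision.

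Of the partner scaffolds, SHANK2 and HOMER1 were well above the reference, and DLGAP1 was near it. SHANK2, a scaffold that joins the PSD-95 and HOMER layers, read 0.02, 1.201 and 0.90 in placebo left at 1 h while the right-sided placebo arrays of that time read 1.35, 1.80 and 0.08. At 6 h the gene read 2.90, 2.38 and 2.70 on the left and 2.34, 2.95 and 2.73 on the right. The 1 h placebo arrays were spread over more than 1 unit, and the lowest values, 0.02 and 0.08, came from arrays whose reference was among the dimmest. The array with the dimmest reference (placebo left 1 h array 3, 15.7% of probes above background in Cy3) read 0.90. With TatNR2B9c, SHANK2 means ran from 1.56 ± 0.13 (left, 1 h) to 2.31 ± 0.26 (right, 6 h). The other SHANK2 probe was above background in Cy5 on 3 of 24 arrays and read between -0.11 and 0.35. It was not tested, and at that brightness it says nothing about the first probe.

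HOMER1, which tethers metabotropic glutamate receptors and has a short form induced by neuronal activity, read 0.14, 1.01 and 0.76 in placebo left at 1 h, while the right-sided placebo arrays of that time read 1.104, 1.13 and 0.16. At 6 h the gene read 2.64, 2.18 and 2.02 on the left and 2.18, 2.17 and 2.79 on the right. The times did not overlap in placebo. TatNR2B9c means were 1.14 ± 0.37 and 1.60 ± 0.39 at 1 h and 2.19 ± 0.42 and 2.34 ± 0.44 at 6 h, left before right. The files do not say which HOMER1 form the single probe reads. DLGAP1 ranged from -0.18 to 1.00 and was above background in Cy5 on 16 of 24 arrays. Its reference signal was above background on 0 of 6 arrays at placebo 1 h, so its ratios there give no firm level.

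NOS1 log2 ratios lay between -0.46 and 0.92, and placebo left at 6 h was its highest group. At placebo 1 h its reference signal was above background on 0 of 6 arrays, so the ratio there gives no firm level. In placebo at 1 h NOS1 read -0.01, -0.01 and 0.19 on the left and 0.10, 0.14 and 0.15 on the right. In placebo at 6 h it read 0.92, 0.59 and 0.46 on the left and 0.02, 0.35 and 0.11 on the right. The left 6 h arrays all lay above the right 6 h arrays. With TatNR2B9c, NOS1 read 0.03, 0.30 and 0.18 on the left and -0.46, -0.08 and -0.25 on the right at 1 h. At 6 h it read -0.15, 0.26 and 0.14 on the left and -0.09, 0.47 and 0.53 on the right. The order of means ran from placebo left 6 h (0.66 ± 0.24) through TatNR2B9c right 6 h (0.30 ± 0.34), TatNR2B9c left 1 h (0.17 ± 0.13), placebo right 6 h (0.16 ± 0.17), placebo right 1 h (0.13 ± 0.02), TatNR2B9c left 6 h (0.08 ± 0.21) and placebo left 1 h (0.06 ± 0.12) to TatNR2B9c right 1 h (-0.26 ± 0.19). Between the second and the seventh place no neighbours differed by more than their spread.

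NOS1AP followed the pattern of DLG2 more than that of NOS1. In placebo it read 0.03, 0.37 and 0.31 on the left at 1 h and 2.99, 2.75 and 3.06 on the left at 6 h. On the right all 3 placebo arrays lay between 0.0037 and 0.36 at 1 h, and they read 2.62, 2.90 and 2.91 at 6 h. Each 6 h array was above every 1 h array. With TatNR2B9c it read 0.40, 0.92 and 0.66 (left) and 0.89, 1.16 and 0.69 (right) at 1 h, then 1.05, 2.77 and 0.96 (left) and 2.26, 2.59 and 1.36 (right) at 6 h. As for DLG2, replicate 2 was the highest TatNR2B9c array on the left at 6 h.

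The first comparison asks whether these transcripts differed between the right, ischemic and the left cortex sampled at 1 h or 6 h. No member probe passed an adjusted p of 0.05 in placebo at 1 h, placebo at 6 h, TatNR2B9c at 1 h, TatNR2B9c at 6 h or pooled over the 12 pairs (0 of 11 tested in each; limma with Benjamini-Hochberg adjustment over all probes). The share called over all probes was 0% in each of these comparisons. At an unadjusted p under 0.05 there were 0, 1, 1, 0 and 0 member probes, against 1.31%, 3.96%, 4.58%, 3.34% and 3.84% of all probes. For DLG4 the pooled right minus left difference was 0.01 on the log2 scale (SE 0.12, 95% interval -0.24 to 0.26), with the right side higher in 6 of 12 same-numbered pairs.

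NOS1 gave both unadjusted differences. In placebo at 6 h the right cortex was lower in each pair, by -0.90, -0.24 and -0.35, with a mean of -0.50 (SE 0.17, unadjusted p = 0.0078, limma; adjusted p = 1). In TatNR2B9c animals at 1 h it was lower by -0.49, -0.38 and -0.43, with a mean of -0.43 (SE 0.17, unadjusted p = 0.0175, limma; adjusted p = 0.923). In both comparisons the 2 sides did not overlap, which held for 12.8% and 20.2% of all probes. In Cy5 alone the placebo 6 h pairs read 0.46, -0.01 and -0.66 (mean -0.07) and the TatNR2B9c 1 h pairs -0.15, -0.90 and 0.14 (mean -0.30), so the sample channel alone was not lower in every pair. Within scan day 3 the placebo 6 h difference in the ratio was -0.43 (3 right arrays against 1 left), and on the only slide with both sides it was -0.57 (1 array against 1). In placebo at 1 h the NOS1 pairs read 0.12, 0.15 and -0.04, and in TatNR2B9c animals at 6 h they read 0.06, 0.22 and 0.39. Pooled, NOS1 was lower on the right in 7 of 12 pairs with a mean of -0.16 (SE 0.08, adjusted p = 0.884, limma), and in Cy5 alone the pooled difference was 0.07.

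**Figure D2:**
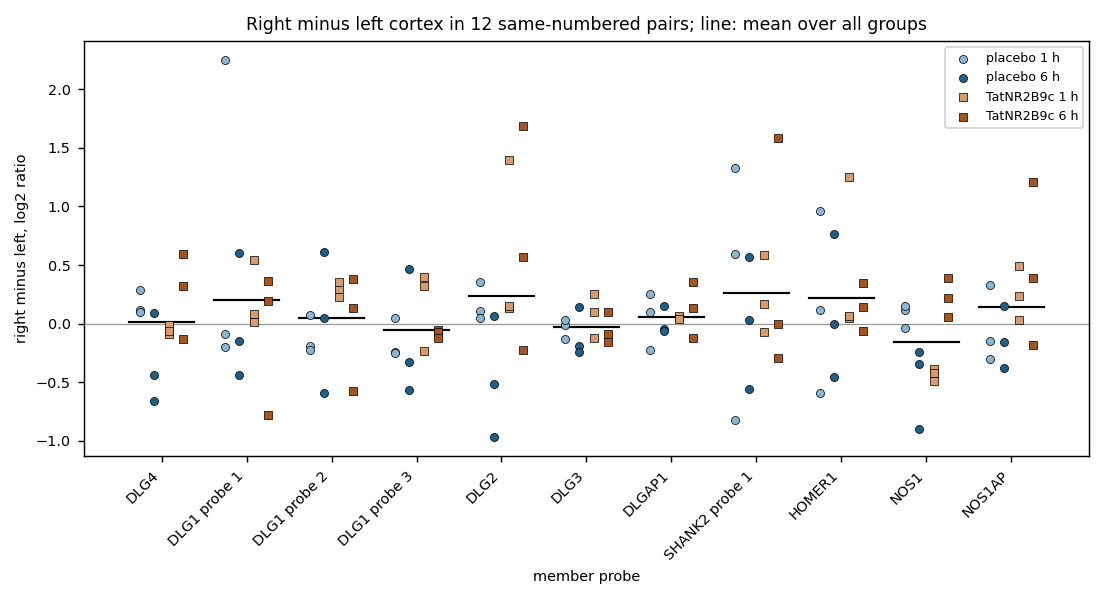
Right minus left log2 ratio (vertical axis) in 12 same-numbered pairs for the 11 tested member probes (horizontal axis); colours and shapes give treatment and time, and black lines the mean over all groups. The NOS1 pairs of placebo 6 h and TatNR2B9c 1 h lie below 0 and those of TatNR2B9c 6 h above it, and 1 DLG1 probe 1 pair stands above 2.

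Pooled over the pairs, the remaining members spread around 0. Pooled means ran from -0.16 (NOS1) to 0.26 (SHANK2), with a median of 0.06 over the 11 probes against 0.001 over all probes. DLG2 was higher on the right in 9 of 12 pairs (mean 0.23, SE 0.23), HOMER1 in 8 of 12 (mean 0.22, SE 0.16) and NOS1AP in 7 of 12 (mean 0.14, SE 0.18). SHANK2 had an SE of 0.21, and its mean, like those of DLG2, HOMER1 and NOS1AP, had a 95% interval that includes 0. In TatNR2B9c animals at 1 h, 9 of the 11 probes were above 0, with a median of 0.21 against -0.03 over all probes. There 3 member probes did not overlap between the sides, NOS1 lower and DLG1 probes 1 and 2 higher on the right. Over all probes 20.2% did not overlap, and 7.97% were higher without overlap.

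The second comparison is 6 h against 1 h. In placebo left cortex 8 of the 11 probes rose, against 54.2% of all probes called (31% higher and 23.2% lower), and none fell. DLG2 rose by 3.36 (SE 0.46, adjusted p = 1.83e-05, limma), NOS1AP by 2.70 (SE 0.36, adjusted p = 1.38e-05), DLG4 by 2.38 (SE 0.24, adjusted p = 2.29e-06), SHANK2 by 1.95 and HOMER1 by 1.64. NOS1 rose by 0.60 (SE 0.17, adjusted p = 0.0054), DLGAP1 by 0.54 and DLG3 by 0.48. DLGAP1 passed the detection filter through the placebo 6 h groups alone, the groups in which it is higher, so its calls support nothing. The 3 DLG1 probes differed by 0.06 to 0.70 and did not pass. In placebo right cortex 6 of 11 rose, against 40.9% called and 21.6% called higher: DLG2 by 2.72, NOS1AP by 2.61, DLG4 by 1.87, SHANK2 by 1.60, HOMER1 by 1.58 and DLGAP1 by 0.52. DLG3 differed by 0.42 (adjusted p = 0.0667) and NOS1 by 0.03 (adjusted p = 0.906). The 11 probes had a median difference of 0.70 in left and 0.52 in right cortex, against 0.11 and 0.05 over all probes. The 2 times did not overlap for 8 probes on the left and 7 on the right, and for 64% and 59.9% of all probes.

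Those rises coincide with the change of array campaign and of reference brightness, which differs among members. At placebo 1 h the Cy3 signal was above background on 0 of 6 arrays for DLG2, DLG3, DLGAP1, NOS1 and NOS1AP, on 1 for DLG4, on 3 for HOMER1 and on 5 for SHANK2. At placebo 6 h it was above background on 6 of 6 for each. In the Cy5 channel alone, quantile-normalised, DLG4 was higher at 6 h by 1.90 in left and 2.11 in right cortex (limma adjusted p = 0.0055 and 0.0013), DLG2 by 1.60 and 1.75 (0.0032 and 0.00075), NOS1AP by 0.96 and 1.35 (0.0262 and 0.0017) and NOS1 by 0.94 and 0.86 (0.0312 and 0.0325). HOMER1 turned to -0.73 and -0.24 and SHANK2 to -0.65 and -0.30, with adjusted p from 0.0911 to 0.7. DLG3 on the left turned to -0.27, and DLG1 probe 1 was lower by -0.69 and -0.60 (adjusted p = 0.0255 and 0.0327). DLG1 probe 3 was lower by -0.57 on the right (adjusted p = 0.0391). DLG4, DLG2 and NOS1AP were thus higher at 6 h in both readings and on both sides, and HOMER1 and SHANK2 were higher in the ratio alone.

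**Figure D3:**
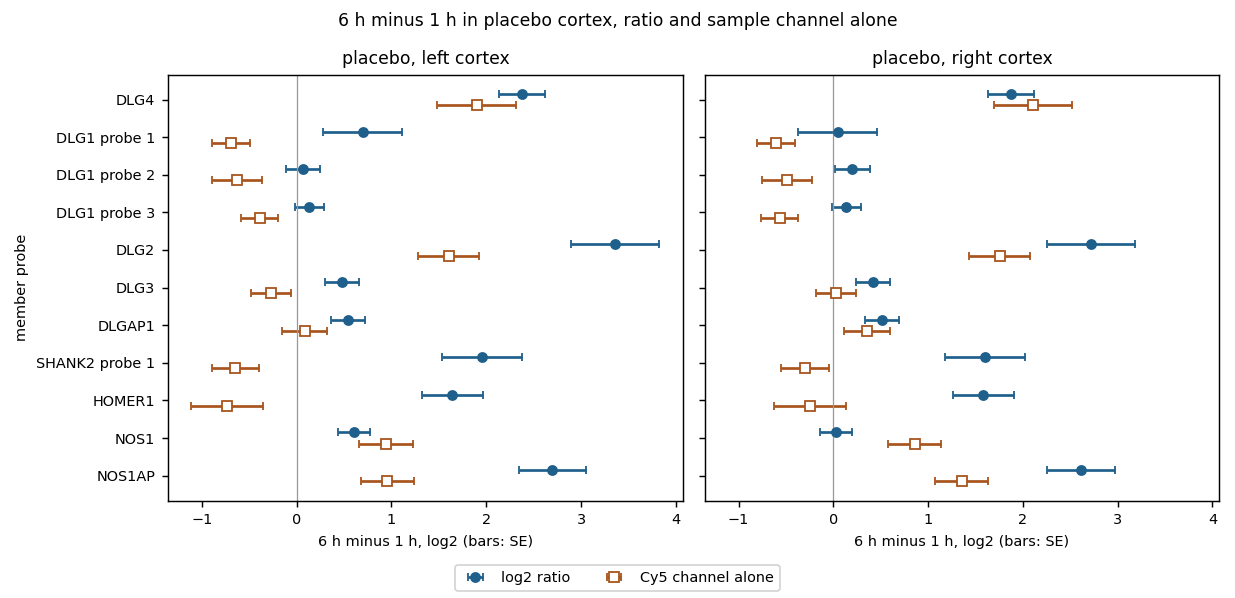
Difference of 6 h minus 1 h in placebo cortex (horizontal axis, log2, bars SE) for the 11 tested member probes (vertical axis), left and right, 3 arrays against 3. Filled circles are the log2 ratio and open squares the Cy5 channel alone. The pair lies on the same side of 0 for DLG4, DLG2, DLGAP1, NOS1 and NOS1AP. It lies on opposite sides for HOMER1, SHANK2 probe 1 and every DLG1 probe, and for DLG3 on the left alone.

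Some of these calls rest on single arrays. SHANK2 on the right was 1.103 (adjusted p = 0.0508) without placebo right 1 h array 3. DLG3 on the left was lost without placebo left 1 h array 1 (0.45, adjusted p = 0.081), without its array 3 (0.49, 0.0529) or without placebo left 6 h array 1 (0.39, 0.116). DLGAP1 on the left was lost without placebo left 1 h array 3 (0.44, 0.0689) or placebo left 6 h array 3 (0.50, 0.0514). On the right it was lost without placebo right 1 h array 2 (0.49, 0.0638) or 3 (0.52, 0.0698), or without placebo right 6 h array 2 (0.49, 0.0743) or 3 (0.51, 0.061). The calls for DLG2, DLG4, HOMER1 and NOS1AP held without any single array. Under 13 other settings of processing or fit, the DLG4 call was lost in 2 on each side and the NOS1AP call in 2 on the right. The HOMER1 call was lost in 3 and its sign turned in 2 on each side. Without the 3 arrays whose reference was above background for under 25% of probes, 5 probes remained past the threshold on the left. There 25.6% of all probes were called, and NOS1 was 0.67 (adjusted p = 0.063, limma), DLGAP1 0.33 and DLG3 0.45.

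Markers of several cell types moved with the same comparison. All 14 measured neuronal genes rose in placebo on both sides, with medians of 2.58 and 2.40, and their mean level per array went from between 0.09 and 2.18 at 1 h to between 3.55 and 4.03 at 6 h. Of the interneuron markers, whose cells include the NOS1-expressing ones, 9 of 11 rose on the left and 6 of 11 on the right. Of the neuronal markers, RBFOX3 was not measured, and in Cy5 alone the mean level of the 14 genes was 12.78 to 13.07 at 1 h and 13.12 to 13.66 at 6 h. Oligodendrocyte markers rose for 8 of 10 genes on the left and 5 of 10 on the right (medians 1.92 and 1.39), and astrocyte markers for 5 and 4 of 10. Meningeal and choroid plexus markers fell for 5 and 4 of 7 (medians -1.72 and -1.22), and blood cell markers for 4 and 4 of 8 (medians -1.06 and -1.25). Of 11 microglia and macrophage markers, 2 rose and 1 fell on the left, and 5 fell on the right (medians -0.25 and -0.68). Endothelial and mural markers fell for 2 and 1 of 10. Over all probes 31% and 21.6% were called higher and 23.2% and 19.3% lower, left before right. The part of these shifts in the DLG4, DLG2 and NOS1AP differences was not tested.

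In TatNR2B9c animals the same time comparison gave no call: 0 of 11 member probes on each side, with 0% of all probes called. With the replicate number as a block, DLG4 (adjusted p = 0.0335), NOS1AP (0.0487) and DLG2 (0.0494) passed on the right in limma, where 1.6% of all probes did, though the numbers are not shown to pair the samples. At an unadjusted p under 0.05, 4 member probes differed on the left and 6 on the right, against 16.3% and 19.3% of all probes. DLG4 was 1.07 higher at 6 h on the right (SE 0.24, adjusted p = 0.07, limma) and 0.75 higher on the left (SE 0.24, adjusted p = 0.189), and the times did not overlap on either side, as held for 17.7% (left) and 27.7% (right) of all probes. Within scan day 4, which holds the TatNR2B9c 1 h arrays and 1 array per side at 6 h, DLG4 was higher by 0.72 (left) and 0.65 (right). With the slide as a block the DLG4 differences were 0.35 and 0.67, and with the scan day 0.53 and 0.84. DLG2 was 1.41 and 1.52 higher, NOS1AP 0.94 and 1.15, and HOMER1 1.05 and 0.74, left before right, with adjusted p between 0.11 and 0.229. In Cy5 alone DLG4 differed by 0.09 and 0.69, DLG2 by 0.16 and 0.49, NOS1AP by -0.28 and -0.13 and HOMER1 by -0.77 and -0.18. No member passed the test in Cy5 alone, with adjusted p of 0.202 or more.

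The third comparison is TatNR2B9c against placebo. At 6 h in the left, non-ischemic cortex 3 of 11 member probes were called, all lower with TatNR2B9c, against 24.6% of all probes called and 13.8% called lower. DLG4 was lower by -1.25 (SE 0.24, 95% interval -1.76 to -0.75, adjusted p = 0.0017, limma), a fold of 2.39, and all 3 TatNR2B9c arrays lay below all 3 placebo arrays. NOS1AP was lower by -1.34 (SE 0.36, adjusted p = 0.0119) with overlap, since replicate 2 at 2.77 exceeded a placebo array at 2.75. NOS1 was lower by -0.58 (SE 0.17, adjusted p = 0.0183), with no overlap. The shares of member probes called and of all probes called were 27.3% and 24.6%. The median over the 11 probes was -0.35, against -0.07 over all probes.

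DLG4 was also lower in the Cy5 channel alone, by -1.52 (adjusted p = 0.02, limma), whereas NOS1 was -0.44 (adjusted p = 0.264) and NOS1AP -0.21 (adjusted p = 0.607) there. The DLG4 difference stayed past the threshold without any single array, between -1.42 and -1.10. NOS1 lost its call without placebo left 6 h array 1 (-0.44, adjusted p = 0.0994) or TatNR2B9c left 6 h array 1 (-0.46, 0.0947). NOS1AP lost its call without TatNR2B9c left 6 h array 1 (-1.07, 0.0742) or array 3 (-1.03, 0.0708). The member count was 1 without TatNR2B9c left 6 h array 1 and 5 without its array 2. With the 2 groups fitted alone no call remained, and DLG4 kept its difference of -1.25 with an adjusted p of 0.0636 in limma. The share called over all probes was not computed for these omissions or for that fit, so the member counts cannot be set against it. The DLG4 call was also lost with the authors' processed signals (-0.87, adjusted p = 0.602) and with arrays scaled to equal spread (-0.35, adjusted p = 0.728). Of the 14 neuronal markers 2 were called lower here and 12 did not pass, with a median of -0.61, and their mean level was 3.55 to 3.63 in placebo and 2.56 to 3.64 with TatNR2B9c. Oligodendrocyte markers were lower for 3 of 10 genes (median -1.18). Blood cell markers were higher for 4 of 8 and lower for 1 (median 1.58), and meningeal and choroid plexus markers higher for 4 of 7 (median 1.25). The part of these markers in the result was not tested.

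In the right, ischemic cortex at 6 h no member probe was called (0 of 11, against 4.3% of all probes, 1.65% lower). DLG4 was lower by -0.66 (SE 0.24, adjusted p = 0.123, limma) and NOS1AP by -0.74 (SE 0.36, adjusted p = 0.246), the 1 member probe without overlap, as held for 30.1% of all probes. NOS1 was 0.14 higher (SE 0.17). In Cy5 alone DLG4 was -1.34 (adjusted p = 0.0532). Without TatNR2B9c right 6 h array 2, the array at 2.00 for DLG4, 1 member probe was called. The share over all probes was not computed for that omission.

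At 1 h no member probe was called on the left (0 of 11, against 0.865% of all probes, 0.0406% lower) or the right (0 of 11, against 1.58%, 1.21% lower). On the right 7 member probes did not overlap between treatments. Of these NOS1 was lower with TatNR2B9c, and 6 were higher: the 3 DLG1 probes, DLG2, HOMER1 and NOS1AP. Over all probes 26.4% did not overlap, and 12.6% were higher without overlap. DLG2 was 0.90 (left) and 1.29 (right) higher, with adjusted p = 0.544 and 0.202 (limma). In Cy5 alone the DLG2 differences were 1.78 and 2.04 (adjusted p = 0.00074 and 0.00034) and those of NOS1AP were 1.03 and 1.52 (0.0122 and 0.0011). NOS1 was 1.103 higher on the left in Cy5 alone (0.009). DLG4 did not pass in either reading, at 0.37 and 0.15 in the ratio and 0.29 and 0.08 in Cy5 alone. The 1 h placebo arrays are those with the dim reference.

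**Figure D4:**
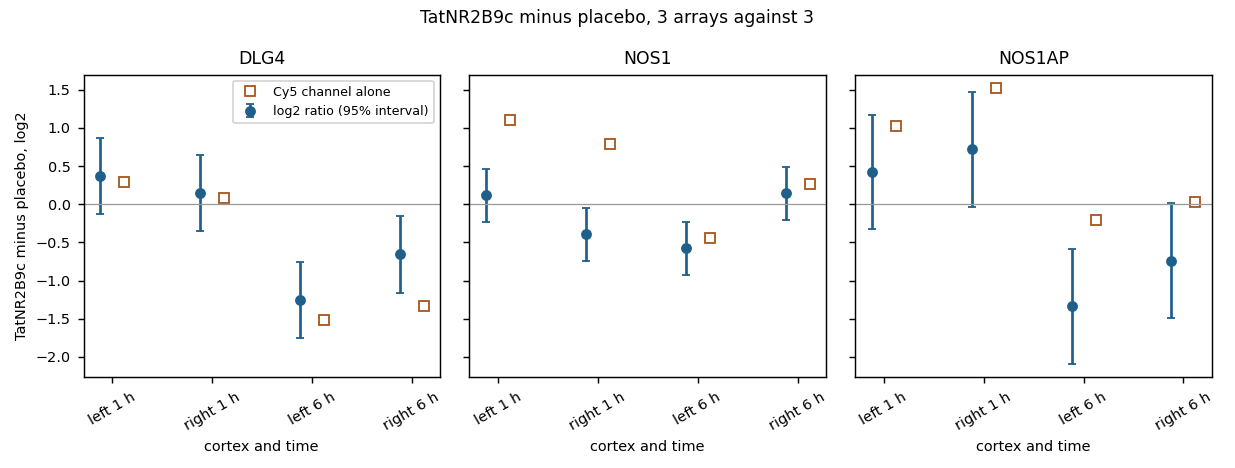
TatNR2B9c minus placebo (vertical axis, log2) for DLG4, NOS1 and NOS1AP in left and right cortex at 1 h and 6 h (horizontal axis), 3 arrays against 3. Filled circles are the log2 ratio with 95% intervals and open squares the Cy5 channel alone; DLG4 at 6 h lies below 0 in both readings, while NOS1AP at left 6 h is -1.34 in the ratio and -0.21 in Cy5 alone.

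The last question is whether treatment or time altered the difference between the sides. No member probe was called in the interaction of treatment with side at 1 h or at 6 h, or of time with side (0 of 11 each, 0% of all probes). For NOS1, right minus left with TatNR2B9c less that with placebo was -0.51 at 1 h (SE 0.24, unadjusted p = 0.043, limma) and 0.72 at 6 h (SE 0.24, unadjusted p = 0.0068), with adjusted p of 1 and 0.922. For DLG4 the values were -0.22 (SE 0.34) and 0.60 (SE 0.34). The time by side value was 0.04 for NOS1 (SE 0.17) and -0.09 for DLG4 (SE 0.24).

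In placebo, receptor and scaffold genes of the same machinery were called higher at 6 h more often than all probes (31% on the left and 21.6% on the right), and nitric oxide pathway genes at shares near those. Of 6 measured NMDA receptor subunit genes, 5 rose on the left and 4 on the right, with medians of 2.43 and 1.93. Of 33 other postsynaptic density scaffold and signalling genes, 29 rose and 1 fell on the left, and 25 rose and 1 fell on the right (medians 1.97 and 1.37). Of 24 nitric oxide pathway genes, 9 rose and 3 fell on the left, and 7 rose and 3 fell on the right (medians 0.21 and -0.04). Of 19 immediate early genes, 9 rose on the left and 2 on the right. In TatNR2B9c animals none of the genes of the 4 lists passed the same comparison on either side, where 0% of all probes were called.

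Among these, the AMPA receptor auxiliary subunit gene CACNG2 (stargazin, which binds PSD-95) rose by 2.54 on the left and 2.43 on the right, and by 0.69 and 1.08 in Cy5 alone. GRIN2A, the gene of the NMDA receptor subunit NR2A, rose by 3.43 and 2.93 in the ratio, but in Cy5 alone its values were -0.82 and -1.35. CALM3, a calmodulin gene whose product activates NOS1, rose by 1.84 and 1.92, and by 1.00 and 1.85 in Cy5 alone. KALRN, whose product acts in dendritic spines, rose by 2.27 and 1.93, and was 0.26 and 0.57 higher in Cy5 alone.

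At left 6 h, 10 of the 33 other postsynaptic density genes were lower with TatNR2B9c and none higher, with a median of -0.58 against -0.07 over all probes. CACNG2 was lower by -1.35 (SE 0.28, adjusted p = 0.0026, limma), DLGAP2 by -2.10 (SE 0.55, adjusted p = 0.0106), DLGAP4 by -0.85 and the adhesion gene NLGN1 by -1.29. In Cy5 alone these were smaller, at -0.38 for CACNG2, -1.68 for DLGAP2, -0.48 for DLGAP4 and -0.19 for NLGN1. DLGAP2 and DLGAP4 are relatives of DLGAP1, which differed by -0.07. Of the 24 nitric oxide pathway genes 3 were lower and 3 higher, among them the inducible synthase gene NOS2 (0.57 higher, with -0.06 in Cy5 alone). At right 6 h the endothelial synthase gene NOS3 was 0.93 higher (SE 0.23, adjusted p = 0.0249) and 1.46 higher in Cy5 alone, where NOS1 was 0.26 higher and did not pass. GAPDH, PDE2A and CAMK2B were higher with TatNR2B9c at left 1 h, by 1.28, 2.48 and 1.64.

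Across the 24 arrays the ratios of DLG2 and NOS1AP had a Pearson correlation of 0.96, DLG4 and NOS1AP of 0.947, and DLG2 and HOMER1 of 0.933. These arrays share the groups, the campaigns and the reference. Over right minus left in the 12 pairs, in which the campaign cancels, the values were 0.897 for DLG2 and NOS1AP, 0.469 for DLG2 and HOMER1, and 0.184 for DLG4 and NOS1AP. The 2 sides of a pair were hybridised on separate arrays, and some placebo 6 h pairs were split between scan days. Depth and normalisation of each array therefore remain in these values. By the same measure over 13745 genes, those most like DLG4 were C18orf37 (0.84), KLF2 (0.839) and SFPQ (0.824), and those most like NOS1 were MGC14151 (0.891), LYNX1 (0.873) and CRYBB3 (0.859). NOS1AP was most like APBA2BP (0.983) and CAMK1D (0.965), DLG2 most like EML5 (0.966), ADD2 (0.965) and NCAN (0.962), and SHANK2 most like CAMSAP1 (0.976) and SLITRK4 (0.971). HOMER1 was most like TLK1 (0.935), DLG1 most like DR1 (0.964), DLG3 most like ANKRD17 (0.874) and DLGAP1 most like ZNF589 (0.832). Each is the highest of many correlations over 12 points and is given as a description. The DLG1 value was read from probe 1 and includes the placebo 1 h pair at 2.25, whose left array read -2.15. Over the same pairs, DLG1 probe 1 had correlations of only 0.268 and 0.178 with DLG1 probes 2 and 3.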

How the data were processed

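Total RNA was labelled with Cy5 and the reference with Cy3 on 24 two-colour Agilent arrays of 41851 spots (1417 controls). The deposited scanner files, per the file headers, hold mean spot and median background intensity for each channel, with the authors' log10 ratio and flags. The submitters' processing notes name Agilent Feature Extraction 10.7.3.1, and the headers give 9.5.3.1, 10.5.1.1 and 10.7.3.1 by campaign. The deposited series table equals that log10 ratio to within 0.005.

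Here the intensities were background-corrected with normexp (offset 50) and normalised by loess within arrays in limma 3.58.1 (R 4.3.3), with control spots at weight 0. Non-uniform spots were dropped and spots of a probe averaged as log2 ratios. A probe was kept when its Cy5 spot was well above background on all arrays of at least 1 group, which left 17226 of 20217 probes and 11 of 12 member probes. The offset and the dim reference compress ratios of low spots. limma fitted 8 group means to the 24 arrays, and p-values of each of 16 comparisons were adjusted over all kept probes (Benjamini-Hochberg), with a threshold of 0.05. Probes with an outlier-flagged value on all arrays of a group had no value there. The procedure was tested on simulated data. Figures were drawn with matplotlib 3.10.9.

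Genes of the lists were represented by their brightest kept probe, and the NOS1AP probe, which the nitric oxide list also names as CAPON, was counted with the members alone. All members, all their probes and, of the lists, up to 6 called genes per comparison with the smallest adjusted p are named (1 such gene is not reported here), and the 3 genes most like each member were found by Pearson correlation. The members and lists were chosen with earlier results of these data known. Marker lists covered neurons, interneurons, astrocytes, oligodendrocytes, microglia, vessels, blood and meninges.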

Additional observations from a re-analysis of the deposited data

Results flagged for a closer look

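NOS1 right minus left went opposite ways in all 3 same-numbered pairs of TatNR2B9c animals at 1 h and all 3 at 6 h. The means were -0.43 and 0.22, 0.655 apart on the log2 scale, and this difference between the times within TatNR2B9c was not tested. In Cy5 alone the 1 h pairs read -0.15, -0.90 and 0.14, which do not all go one way, and the 6 h pairs 0.74, 0.66 and 0.51. NOS1 at 6 h also went opposite ways in placebo (-0.50) and TatNR2B9c (0.22), 0.718 apart, with an unadjusted p of 0.0068 and an adjusted p of 0.922 for the interaction in limma. DLG4 at 1 h went opposite ways in placebo (0.17) and TatNR2B9c (-0.06), a difference of -0.221 with an adjusted p of 1 in limma. These were 3 of 44 such comparisons of member probes.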

How the results depend on the processing

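With the authors' processed signals, and likewise with the deposited series table, 2 member probes were called for 6 h against 1 h in placebo left and 2 in placebo right (29.4% and 15.1% of all probes with processed signals). For TatNR2B9c against placebo there was 1 at left 1 h, 0 at left 6 h and 1 at right 1 h (12%, 0.284% and 6.08% of all probes). Centring each array on its median gave 7 at left 1 h, 5 at left 6 h, 6 at right 1 h and 1 at right 6 h, where 77.1%, 19.1%, 67% and 3.2% of all probes were called. Scaling arrays to equal spread gave 2 at left 1 h and 0 at left 6 h, and 3 in each placebo time comparison (7.65%, 0.0929%, and 13.1% and 6.46% of all probes). Cy5 alone gave 3, 1 and 2 at left 1 h, left 6 h and right 1 h, and 5 for placebo left time, where 21.8%, 15.4%, 17% and 14.1% of all probes were called. The 2 groups fitted alone gave 0 at left 6 h, a fit for which the share over all probes was not computed. Without the 3 weak-reference arrays, 5 were called for placebo left time (25.6% of all probes).

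Some signs turned. Under median centring, 6 h minus 1 h in placebo was -0.80 (left) and -0.12 (right) for HOMER1, and -1.29 and -0.945 for SHANK2. In Cy5 alone the values were -0.73 and -0.24 for HOMER1, -0.65 and -0.30 for SHANK2, and -0.27 for DLG3 on the left. DLG3 on the left was -0.105 with processed signals and -0.104 with the series table. The pooled right minus left value of DLG4, near 0 throughout, was -0.165 with processed signals and with the series table, -0.047 with the slide and -0.014 with the scan day as a block, and -0.016 without the weak-reference arrays. That of NOS1 was 0.068 in Cy5 alone. The causes were not tested. The all-probe median of 6 h minus 1 h in placebo left was 0.11, -0.33 with processed signals and -0.80 under median centring, so the HOMER1 value there equals the shift of all probes. Higher calls there were 57.3%, 38.2% and 35.8% of calls, and 46.6% in Cy5 alone. For TatNR2B9c against placebo at left 6 h they were 43.8%, 26.5%, 20% and 33.1%.

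Leaving out 1 array at a time, the count of member probes called ranged from 1 (without TatNR2B9c left 6 h array 1) to 5 (without array 2) for treatment at left 6 h. It ranged from 0 to 1 for treatment at right 6 h (1 without TatNR2B9c right 6 h array 2), and from 0 to 2 for TatNR2B9c right time (2 without TatNR2B9c right 6 h array 3). The share called over all probes was not computed for these omissions, so these counts cannot be set against it. The pooled DLG4 value ranged from -0.075 to 0.062. The DLG2 time calls in placebo held under all 13 other settings on both sides. Those of DLG4 were lost in 2 of 13 on each side, and over all 13 its lowest differences were 1.34 (left) and 1.02 (right). The NOS1AP time call was lost in 2 of 13 on the right. The DLG4 treatment call at left 6 h was lost in 4 of 13.

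Same-numbered left and right arrays deviated together (correlation over 0.1) in 6 of 12 pairs, with correlations from -0.708 to 0.683. The TatNR2B9c pairs were at 0.239 or higher except 6 h pair 1 (-0.21), and the placebo pairs were below 0 except 1 h pair 2 (0.683). Reference brightness also differed between arrays of a group, so these correlations cannot settle whether the numbers pair the samples. With the replicate block, 3 member probes were called for TatNR2B9c right time, and 1.6% of all probes. Member probes dim in the reference have compressed ratios, which limits all 1 h placebo values.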
